A study of Mus musculus with 8 samples.

Results

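Here 10 genes widely used to recognise microglia, namely Cx3cr1, Csf1r, P2ry12, Tmem119, Ctss, C1qa, C1qb, C1qc, Trem2 and Tyrobp, are described across 8 mouse RNA-sequencing libraries. They are 10 of the 29713 genes in the tables, were taken as a named list and were all found by symbol. The libraries were glia and neuron, both from brain of strain C57, cerebellum, hippocampus and cortex of strain C57, the library labelled R1 ESCs, and ICR MEF and OG2 MEF. R1 is an embryonic stem cell line of the cross 129X1 x 129S1, taken from the inner cell mass, and the MEF libraries are fibroblasts of day 13.5 embryos of strains ICR and OG2. No treatment is named for any group, and the sources used here give no age, sex, pooling or method of isolating glia and neurons. Each group held 1 library, so differences lack a replicate check and p-values are not given. Total expected counts were between 2147004 and 5864673 per library, and all 95% intervals below cover counting error only. In the library labelled R1 ESCs the stem cell markers Pou5f1, Nanog and Tdh had 20.2, 10.3 and 14.6 TPM and were called higher than in the MEFs by the rule given below, while 5 of 10 pluripotency markers were at 0. Of those, Zfp42, Utf1 and Lin28a were at 0 in all 8 libraries.

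Microglia are the resident macrophages of the brain. They depend on signals through the receptor encoded by Csf1r, sense neurons through the fractalkine receptor encoded by Cx3cr1, and follow extracellular nucleotides with the receptor encoded by P2ry12. Tmem119 encodes a membrane protein used to tell microglia from other macrophages in the brain. Trem2 is a receptor for lipids and apolipoproteins that signals through the adaptor encoded by Tyrobp. Ctss encodes a lysosomal cysteine protease. C1qa, C1qb and C1qc encode the chains of C1q, which starts the classical complement pathway and in mouse brain takes part in the removal of synapses.

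C1qa (ENSMUSG00000036887), C1qc (ENSMUSG00000036896) and C1qb (ENSMUSG00000036905) are neighbours on chromosome 4 and read on the minus strand, at chr4:136895917-136898803, chr4:136889804-136893065 and chr4:136880129-136886187 of mm10. Cx3cr1 (ENSMUSG00000052336) lies on chromosome 9 and Tmem119 (ENSMUSG00000054675) on chromosome 5, and Tyrobp (ENSMUSG00000030579) lies on chromosome 7. P2ry12 (ENSMUSG00000036353) and Ctss (ENSMUSG00000038642) lie on chromosome 3, and Trem2 (ENSMUSG00000023992) on chromosome 17. P2ry12, at chr3:59216272-59262871 on the minus strand, lies across from Med12l on the plus strand, and reads of the pair cannot be told apart if the counting did not use strand. The annotated span of Cx3cr1 overlaps other genes on both strands, and that of Csf1r (ENSMUSG00000024621) overlaps Hmgxb3 on the opposite strand. Counts of Csf1r were not whole in any of the 8 libraries, so part of its reads was shared out by the estimate, whereas the other 9 members had whole counts (within 0.005) in all 8.

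The bases just before the transcription start are shown for C1qb, Trem2 and Ctss, which stood at different levels in the neuron library described below (23.4, 9.88 and 2.44 TPM). Each has no annotated exon in the 250 bases before its start. Sequences are RefSeq's for GRCm38.p6, 5′ to 3′ on the gene's strand, at chr4:136886201-136886450 (minus) for C1qb, chr17:48346151-48346400 (plus) for Trem2 and chr3:95526536-95526785 (plus) for Ctss. Capitals mark matches on either strand to 4 motifs. The first, GAGGAA, and the second, which reads GGAAGT, are forms of the site bound by ETS factors such as PU.1. The third, TGANTCA, is a loose form of the AP-1 site that allows any middle base. The fourth, spelled TATAAA, has the letters of a TATA box, here counted at any position and on either strand.
C1qb: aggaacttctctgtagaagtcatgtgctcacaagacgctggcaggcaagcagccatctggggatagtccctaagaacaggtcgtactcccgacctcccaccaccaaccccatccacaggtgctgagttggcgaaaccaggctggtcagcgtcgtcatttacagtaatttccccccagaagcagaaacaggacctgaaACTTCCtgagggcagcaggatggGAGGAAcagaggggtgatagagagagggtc
Trem2: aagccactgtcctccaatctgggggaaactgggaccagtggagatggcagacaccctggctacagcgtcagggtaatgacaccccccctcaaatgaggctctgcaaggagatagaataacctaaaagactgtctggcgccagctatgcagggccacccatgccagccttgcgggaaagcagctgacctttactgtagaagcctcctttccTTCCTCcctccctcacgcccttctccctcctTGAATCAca
Ctss: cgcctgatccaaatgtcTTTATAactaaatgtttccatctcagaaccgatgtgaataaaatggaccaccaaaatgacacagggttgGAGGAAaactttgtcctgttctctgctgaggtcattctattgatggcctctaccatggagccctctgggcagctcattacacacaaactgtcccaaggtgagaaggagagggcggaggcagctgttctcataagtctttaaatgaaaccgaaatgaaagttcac
GAGGAA occurred in all 3 windows, and in 4 of the 6 members that had an entry in the RefSeq table, against 23.3% of 32851 windows of that length. The windows of the other 3 of the 6 hold annotated exon, 151 of 250 bases for C1qc and all 250 for Cx3cr1 and P2ry12. GGAAGT occurred in C1qb and in 3 of the 6 members, against 19.7% of all windows. Among the 6 members, TGANTCA was present in Trem2 alone, against 6.75% of all windows, and TATAAA in Ctss alone, against 12.4%. The Ctss match lies on the opposite strand, 233 to 228 bases before the start. The matches for GAGGAA and GGAAGT overlap each other in C1qc. The motif letters were chosen with these windows in view, and a match is a run of letters and not a site of binding.

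Levels are given as TPM, which counts transcripts scaled for gene length as a share of all transcripts in the library. Summed over the 10 members, the level was 901 TPM in glia, 84.5 TPM in neuron, 189 TPM in cerebellum, 605 TPM in hippocampus, 660.3 TPM in cortex, 6.16 TPM in the library labelled R1 ESCs, 85.7 TPM in ICR MEF and 110.3 TPM in OG2 MEF. Glia therefore held the most member RNA, hippocampus and cortex came next, and cerebellum held less than either. In the MEF libraries Tmem119 alone made up most of the sum. In bulk RNA, fewer microglia and less of a transcript per microglia cannot be told apart. The number of members at 10 TPM or more was 9 in glia, 3 in neuron, 6 in cerebellum, 10 each in hippocampus and cortex, 0 in the library labelled R1 ESCs, 1 in ICR MEF and 3 in OG2 MEF.

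**Figure D1:**
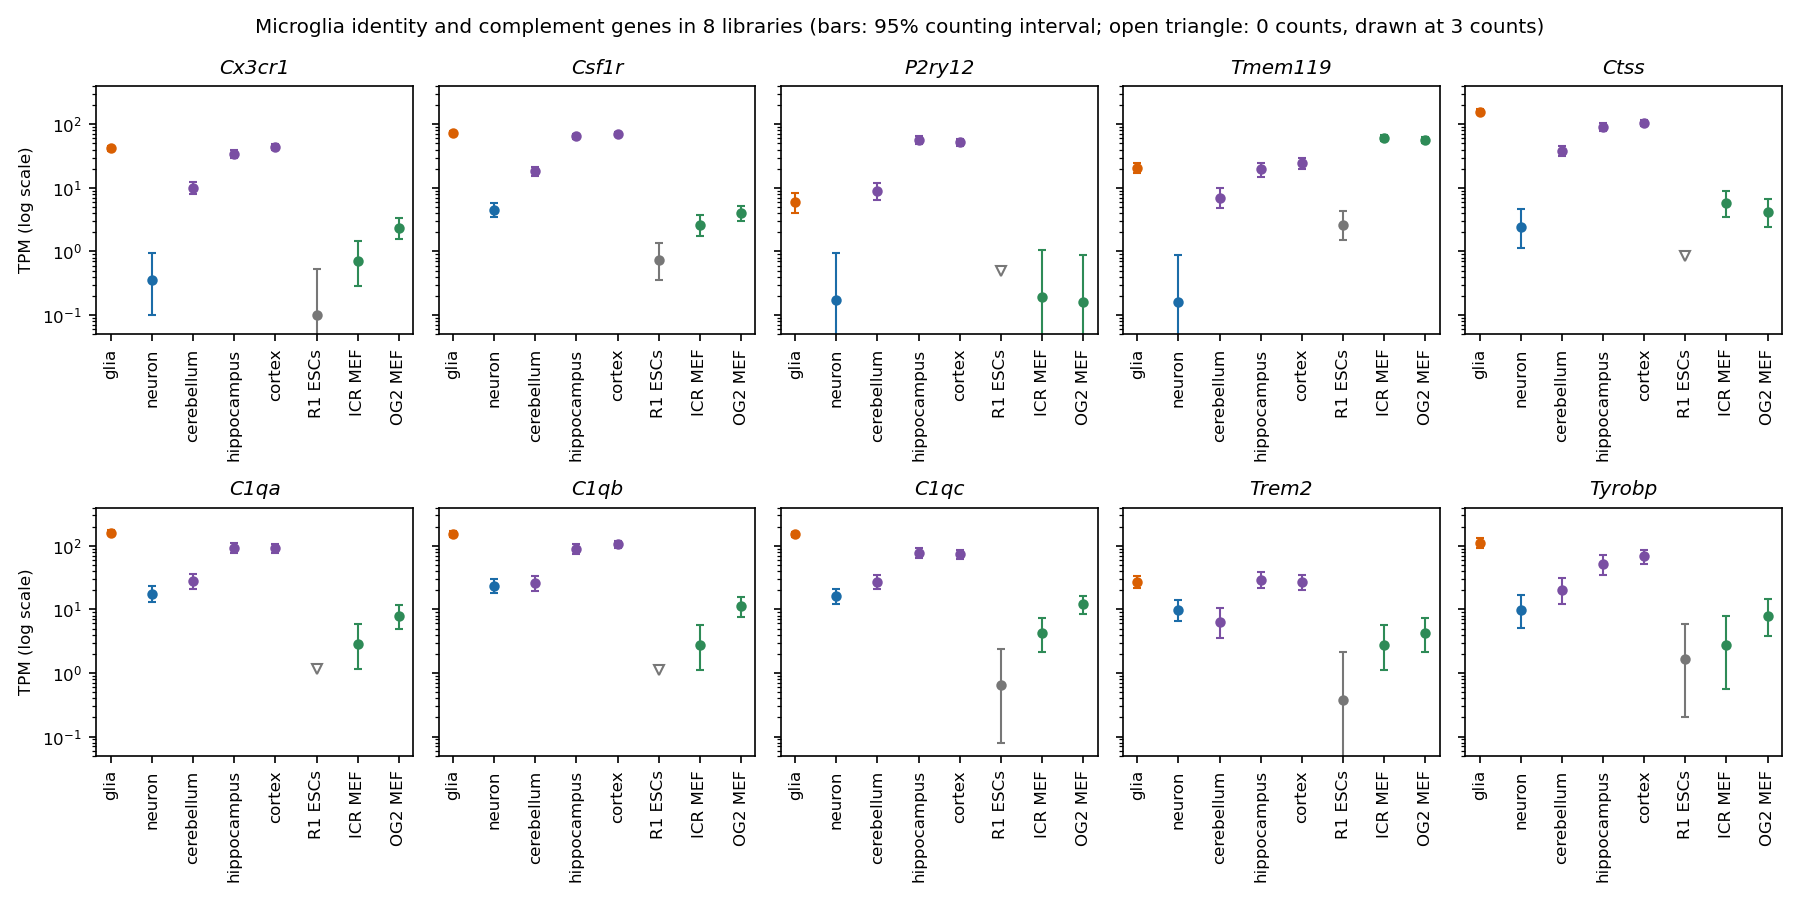
Level of each of the 10 members in each of the 8 libraries, in TPM on a log axis cut at 0.05 TPM, with 95% Poisson intervals of the counts. Glia, hippocampus and cortex lie at the top for most members, P2ry12 in glia (5.92 TPM) lies well under cortex (51.8 TPM), and Tmem119 is highest in the MEF libraries.

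The receptor genes and Tmem119 were all near 0 or low in neuron. Cx3cr1 had 41.7 TPM in glia, 0.36 TPM in neuron, 9.95 TPM in cerebellum, 33.6 TPM in hippocampus and 44.3 TPM in cortex, and 0.10, 0.71 and 2.35 TPM in the library labelled R1 ESCs, ICR MEF and OG2 MEF. Csf1r had 73.3 TPM in glia, 4.49 TPM in neuron, 18.2 TPM in cerebellum, 64.7 TPM in hippocampus, 70.2 TPM in cortex, and 0.74, 2.60 and 4.0 TPM in the library labelled R1 ESCs, ICR MEF and OG2 MEF. For both, glia and cortex differed by less than counting error. In neuron, Cx3cr1 lay among the libraries with no brain tissue, and Csf1r lay 1.12-fold above OG2 MEF, the highest of them, within counting error (0.77 to 1.63). P2ry12 had 5.92 TPM in glia, 0.17 TPM in neuron, 8.92 TPM in cerebellum, 57.4 TPM in hippocampus, 51.8 TPM in cortex, 0 in the library labelled R1 ESCs, 0.19 TPM in ICR MEF and 0.16 TPM in OG2 MEF. It was the only member whose level in glia was below all 3 brain regions, though its gap to cerebellum, 1.51-fold (0.93 to 2.46), was within counting error. Tmem119 had 20.5 TPM in glia, 0.16 TPM in neuron, 7.04 TPM in cerebellum, 19.6 TPM in hippocampus and 24.2 TPM in cortex. In the libraries that are not brain it had 2.64 TPM in the library labelled R1 ESCs, 61.1 TPM in ICR MEF and 56.6 TPM in OG2 MEF, so that the MEFs stood highest.

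Trem2 had 27.1 TPM in glia, 9.88 TPM in neuron, 6.35 TPM in cerebellum, 29.4 TPM in hippocampus, 26.8 TPM in cortex, and 0.38, 2.74 and 4.2 TPM in the library labelled R1 ESCs, ICR MEF and OG2 MEF. It was the only member with a higher level in neuron than in cerebellum, by 1.56-fold, which counting error covers (0.80 to 3.13). Its adaptor Tyrobp had 111 TPM in glia, 9.69 TPM in neuron, 20.1 TPM in cerebellum, 51.2 TPM in hippocampus, 68.1 TPM in cortex, and 1.65, 2.72 and 7.95 TPM in the library labelled R1 ESCs, ICR MEF and OG2 MEF. Ctss had 158 TPM in glia, 2.44 TPM in neuron, 38.0 TPM in cerebellum, 90.2 TPM in hippocampus, 106 TPM in cortex, 0 in the library labelled R1 ESCs, 5.77 TPM in ICR MEF and 4.17 TPM in OG2 MEF. In neuron the protease gene stood below both MEF libraries, on 9 counts and within counting error of OG2 MEF, while the adaptor gene stood close to OG2 MEF.

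C1qa had 161 TPM in glia, 17.7 TPM in neuron, 27.8 TPM in cerebellum, 91.8 TPM in hippocampus, 91.1 TPM in cortex, 0 in the library labelled R1 ESCs, 2.89 TPM in ICR MEF and 7.84 TPM in OG2 MEF. C1qb had 152 TPM in glia, 23.4 TPM in neuron, 25.9 TPM in cerebellum, 89.7 TPM in hippocampus, 105 TPM in cortex, 0 in the library labelled R1 ESCs, 2.74 TPM in ICR MEF and 11.1 TPM in OG2 MEF. C1qc had 151 TPM in glia, 16.2 TPM in neuron, 27.2 TPM in cerebellum, 77.3 TPM in hippocampus, 73.0 TPM in cortex, 0.65 TPM in the library labelled R1 ESCs, 4.18 TPM in ICR MEF and 12 TPM in OG2 MEF. In neuron they lay 1.57-fold (C1qa, 1.05 to 2.35), 1.10-fold (C1qb, 0.76 to 1.60) and 1.68-fold (C1qc, 1.15 to 2.46) below cerebellum. For C1qb that gap was within counting error. The ratio of C1qb over C1qa lay between 0.931 and 1.16 in glia and the brain regions, and was 1.32 (0.90 to 1.96) in neuron and 1.42 (0.80 to 2.56) in OG2 MEF. C1qc over C1qa was 0.935 in glia and 0.914 in neuron, against 0.978 in cerebellum, 0.843 in hippocampus and 0.801 in cortex, and 1.53 (0.89 to 2.70) in OG2 MEF. Of these ratios only C1qc over C1qa in cortex had an interval that left out equal levels (0.65 to 0.99).

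Glia and neuron were set side by side first. Calling a gene different required 10 TPM or more throughout the higher side and a gap of 4-fold or more between the nearest libraries, after adding 1 TPM to each value. Under that rule 8 of the 10 members were called higher in glia than in neuron, against 11.5% of all genes, and 0 were called lower, against 3.91%. The median log2 difference was 3.27 over the members and 0.89 over all measured genes. Among the identity genes the folds of TPM were 128-fold for Tmem119 (95% interval 22.5 to 5100), 116-fold for Cx3cr1 (44.9 to 427) and 16.3-fold for Csf1r (12.6 to 21.4). The Tmem119 and Cx3cr1 values rest on 1 and 4 counts in neuron. Ctss was 64.6-fold higher (33.8 to 142) and Tyrobp 11.5-fold (6.31 to 22.8). The complement chains were closer together, at 9.10-fold for C1qa, 9.31-fold for C1qc and 6.49-fold for C1qb. Outside the call, P2ry12 was 34.8-fold higher in glia (5.82 to 1418) but under 10 TPM there, and Trem2 was 2.75-fold higher (1.76 to 4.39). At 2-fold, 9 members were called higher in glia, against 18.5% of all genes, and 0 lower, against 7.03%. With counts scaled to the library total (CPM) in place of TPM, or with libraries scaled by TMM factors of the TPM, C1qb was no longer called.

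The order of the members also differed within each library, where library size and scaling cancel but gene length does not. Taken as a percent of the mean C1q level of the same library, Cx3cr1 stood at 27.0% in glia and 1.88% (0.51 to 4.91) in neuron. Ctss stood at 102% in glia and 12.8% (5.74 to 24.8) in neuron. Trem2 went the other way, with 17.6% (13.8 to 22.0) in glia and 51.7% (33.3 to 77.5) in neuron. Tyrobp stood at 71.8% in glia and 50.7% (25.7 to 91.0) in neuron, with overlapping intervals. Csf1r stood at 47.4% in glia and 23.5% (17.3 to 31.6) in neuron, Tmem119 at 13.3% in glia and 0.84% (0.02 to 4.73) in neuron, and P2ry12 at 3.83% (2.61 to 5.44) in glia and 0.89% (0.02 to 5.02) in neuron, with overlapping intervals for P2ry12. The order of the members changed when the length trend was removed. With the median of its length bin taken off, the log2 difference of glia from neuron fell from 3.76 to 2.15 for Csf1r. That was below the C1q chains, which had 2.65 to 3.14 before and 2.82 to 3.29 after. Tyrobp rose from 3.39 to 4.67, above Cx3cr1, which fell from 4.97 to 3.51. With 1 TPM added, as in all these differences, P2ry12 lay below the C1q chains both before, at 2.56, and after, at 1.83. Without the added 1 its fold, 34.8 on 1 count in neuron, was above those of the C1q chains, 6.49 to 9.31. With 1 TPM added Ctss was the largest of the members both before and after, at 5.53 and 5.58, and Trem2 the smallest, at 1.37 and 1.54. Without the added 1 the folds of Tmem119 and Cx3cr1, 128 and 116, were above that of Ctss, 64.6.

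**Figure D2:**
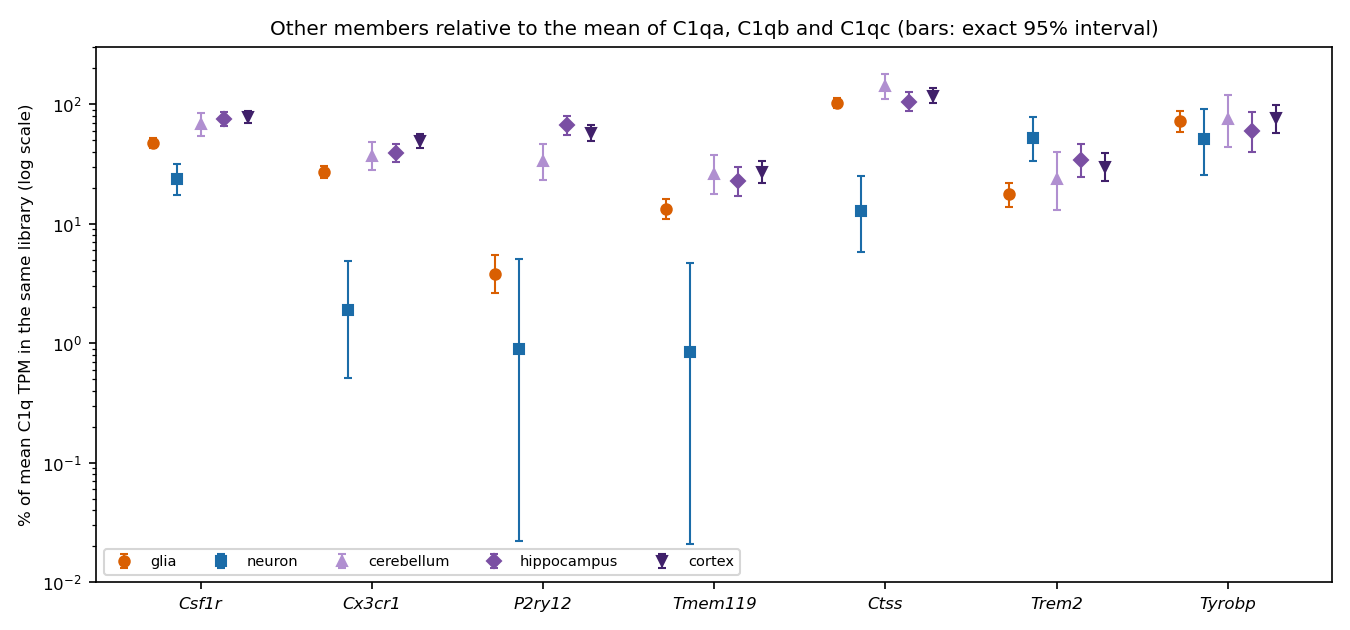
Level of 7 members in glia, neuron and the brain regions as a percent of the mean level of C1qa, C1qb and C1qc in the same library, on a log axis, with 95% counting intervals. P2ry12 in glia (3.83%) and Cx3cr1 in neuron (1.88%) lie far below the brain regions. Trem2 in neuron (51.7%) lies above them, with an interval that overlaps those of all the regions.

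Against the brain regions, glia split the members. None of the 10 members was called higher in glia, against 2.64% of all genes, and none lower, against 3.45%. The same held at 2-fold, against 5.89% higher and 6.52% lower. In glia the C1q chains, Ctss and Tyrobp lay above all 3 regions: C1qc was 1.95-fold above hippocampus, its nearest region (1.59 to 2.40), C1qa 1.76-fold (1.43 to 2.17), and Tyrobp 1.63-fold above cortex (1.19 to 2.26). Ctss was 1.49-fold above cortex (1.29 to 1.73) and C1qb 1.44-fold (1.22 to 1.71). Cx3cr1, Tmem119 and Trem2 in glia lay within the range of the regions, and Csf1r was above cortex by 1.04-fold, within counting error. P2ry12 was 8.74-fold lower in glia than in cortex (6.02 to 13.1) and 9.69-fold lower than in hippocampus (6.62 to 14.6). Without the cerebellum library, which loosens the rule for every gene, P2ry12 was called lower in glia. Relative to C1q within the library, P2ry12 stood at 3.83% (2.61 to 5.44) in glia, against 33.1% in cerebellum, 66.5% in hippocampus and 57.7% in cortex, and Csf1r stood at 47.4% in glia, against 67.6%, 75.0% and 78.2%.

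**Figure D3:**
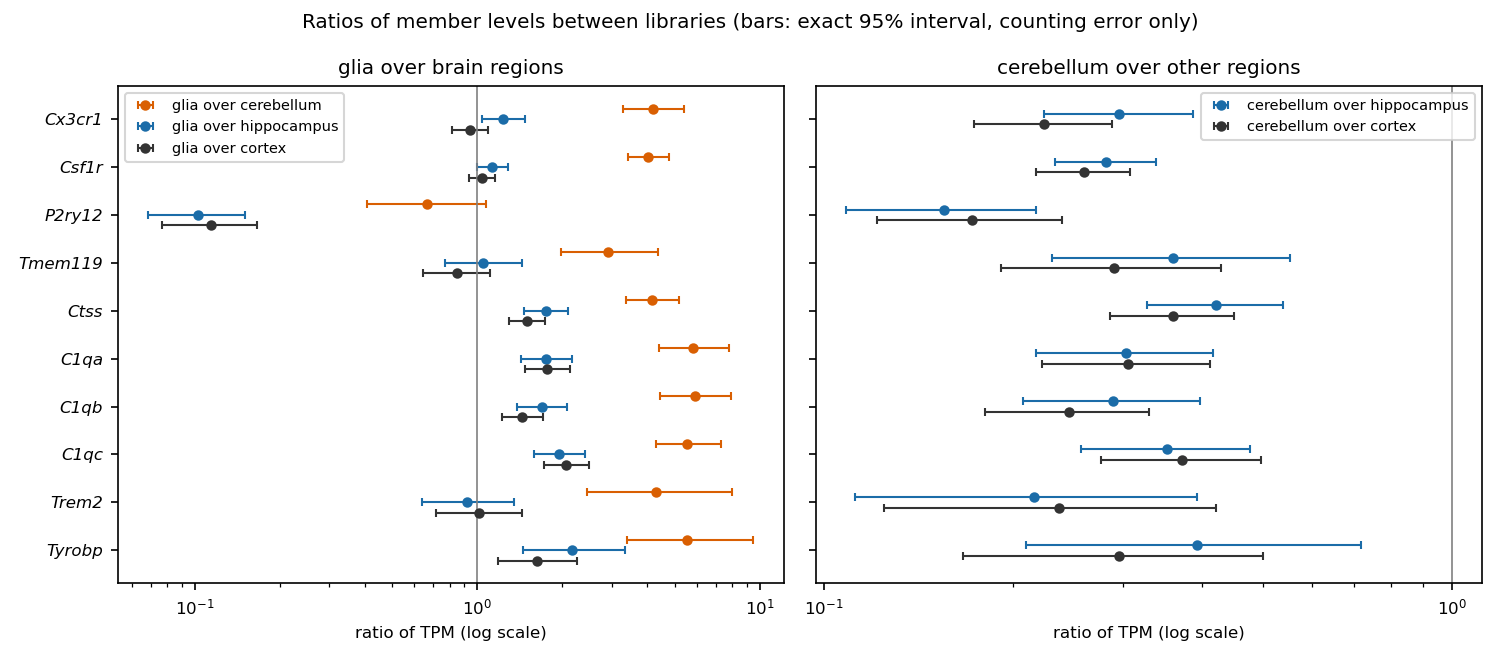
Ratio of TPM for each of the 10 members between pairs of libraries, on a log axis, with exact 95% intervals of the counts. P2ry12 in glia is 8.74-fold below cortex while C1qc is 2.07-fold above it, and all 10 members lie under 1 for cerebellum over cortex.

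Other genes of microglia also parted in glia. The list held 12 further microglia genes, and 1, P2ry6, was called higher in glia than in the brain regions, with 0 called lower. P2ry6, another nucleotide receptor, had 14.8 TPM in glia, against 0.47 TPM in cerebellum, 2.15 TPM in hippocampus and 1.48 TPM in cortex. Siglech, a lectin of the sialic acid binding family, had 0 counts in glia, against 4.31 TPM in cerebellum, 23.4 TPM in hippocampus and 22.3 TPM in cortex. P2ry13, a receptor related to P2ry12, had 2.12 TPM in glia, against 3.01 TPM in cerebellum, 11.3 TPM in hippocampus and 10.9 TPM in cortex, and the orphan receptor gene Gpr34 had 1.45 TPM in glia, against 4.34, 19.2 and 17.4 TPM. Fcrls had 91.7 TPM in glia, against 3.37, 35.4 and 31.7 TPM in the same regions, and the transcription factor gene Sall1 had 38.2 TPM in glia, against 5.66, 14.5 and 12.4 TPM. The list's median log2 difference was -0.09, near the -0.20 of all measured genes, while that of the 10 members was 0.93. Without the cerebellum library the members' median was 0.38, with 7 members above 0 and 3 below. The list's median was not recomputed in that way.

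Genes tied to the members by pathway were read in the same comparison. Of 3 ligands of the member receptors, Csf1 was called higher in glia, with 307 TPM in glia, against 13.8 TPM in cerebellum, 15.7 TPM in hippocampus and 11.3 TPM in cortex. Il34, the other ligand of the Csf1r receptor, had 11.2 TPM in glia, against 7.14, 60.3 and 69.3 TPM in the same regions. Cx3cl1, the ligand of the Cx3cr1 receptor, had 70.4 TPM in glia and 191 TPM in neuron, against 44.3 TPM in cerebellum, 357 TPM in hippocampus and 501 TPM in cortex. Of 14 other complement genes, 5 were called higher in glia than in the brain regions and 0 lower. C1ra and C1s1, which encode proteases that pair with C1q, had 24.8 and 22.1 TPM in glia, against at most 1.73 TPM in any region. The receptor genes C3ar1 and C5ar1 had 16.2 and 15.1 TPM in glia and C3 had 13 TPM, again against at most 1.73 TPM in any region. In ICR MEF and OG2 MEF, C1ra had 9.99 and 7.88 TPM, C1s1 6.16 and 6.06 TPM, and Csf1 117 and 104 TPM. C3ar1, C5ar1 and C3 had at most 2.38 TPM in either MEF library. Of 10 lipid and phagocytosis genes in the tables, a group that includes genes raised through Trem2 in mouse microglia near plaques, 5 were called higher in glia and 0 lower. Among them the galectin gene Lgals3 had 259 TPM in glia, against 3.10, 0.77 and 1.57 TPM in cerebellum, hippocampus and cortex, and the osteopontin gene Spp1 had 455 TPM in glia, against 46.4, 13.3 and 33.8 TPM. Both were also high in the MEFs, at 274 and 302 TPM for Lgals3 and 605 and 507 TPM for Spp1 in ICR MEF and OG2 MEF.

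Markers of other cells moved with the glia library. Border macrophage genes, 10 in all, summed to 95 TPM in glia, against 23.8 to 32.7 TPM in the brain regions. Stab1 made up the largest part, with 43.0 TPM in glia, against 13.9 TPM in cerebellum, 13.1 TPM in hippocampus and 9.44 TPM in cortex. Ms4a7 had 18.1 TPM in glia, and Cd163, Lyve1 and Cd209f were at 0 there. Blood monocyte and neutrophil genes, 10 in all, summed to 2.57 TPM in glia, with 8 of them at 0, against 8.41 to 16.5 TPM in the regions. Fibroblast markers split, with 5 of 10 called higher in glia and 1, Dcn, lower. Their sum was 1891 TPM in glia, with 0 of 10 at 0, against 94.1 to 154 TPM in the regions, and most of it came from Fn1 (1018 TPM in glia) and Thbs1 (615 TPM in glia). Dcn had 2.92 TPM in glia, against 22.2 TPM in cerebellum, 61.4 TPM in hippocampus and 45.6 TPM in cortex. Neuron markers summed to 1006 TPM in glia, with 2 of 12 at 0, against 8141 to 9581 TPM in the regions, and 9 were called lower in glia. Most of the glia sum came from Thy1 (520 TPM), Stmn2 (288 TPM) and Map2 (118 TPM). Thy1 was also high in ICR MEF and OG2 MEF, at 336 and 419 TPM. Snap25, among those called lower, had 0.73 TPM in glia. Oligodendrocyte markers summed to 889 TPM in glia, with 3 of 10 at 0, against 4801 to 6277 TPM in the regions. Of these, 7 were called lower in glia and Olig1 was called higher, with 631 TPM in glia, against 82.6 TPM in cerebellum, 137 TPM in hippocampus and 123 TPM in cortex, and nearly all of the glia sum came from Olig1, Cnp (147 TPM) and Olig2 (102 TPM). Astrocyte markers summed to 3269 TPM in glia, with 1 of 12 at 0, against 2990 to 6372 TPM in the regions, with 2 called higher and 3 lower. The part of these cells in the members' differences was not tested.

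**Figure D4:**
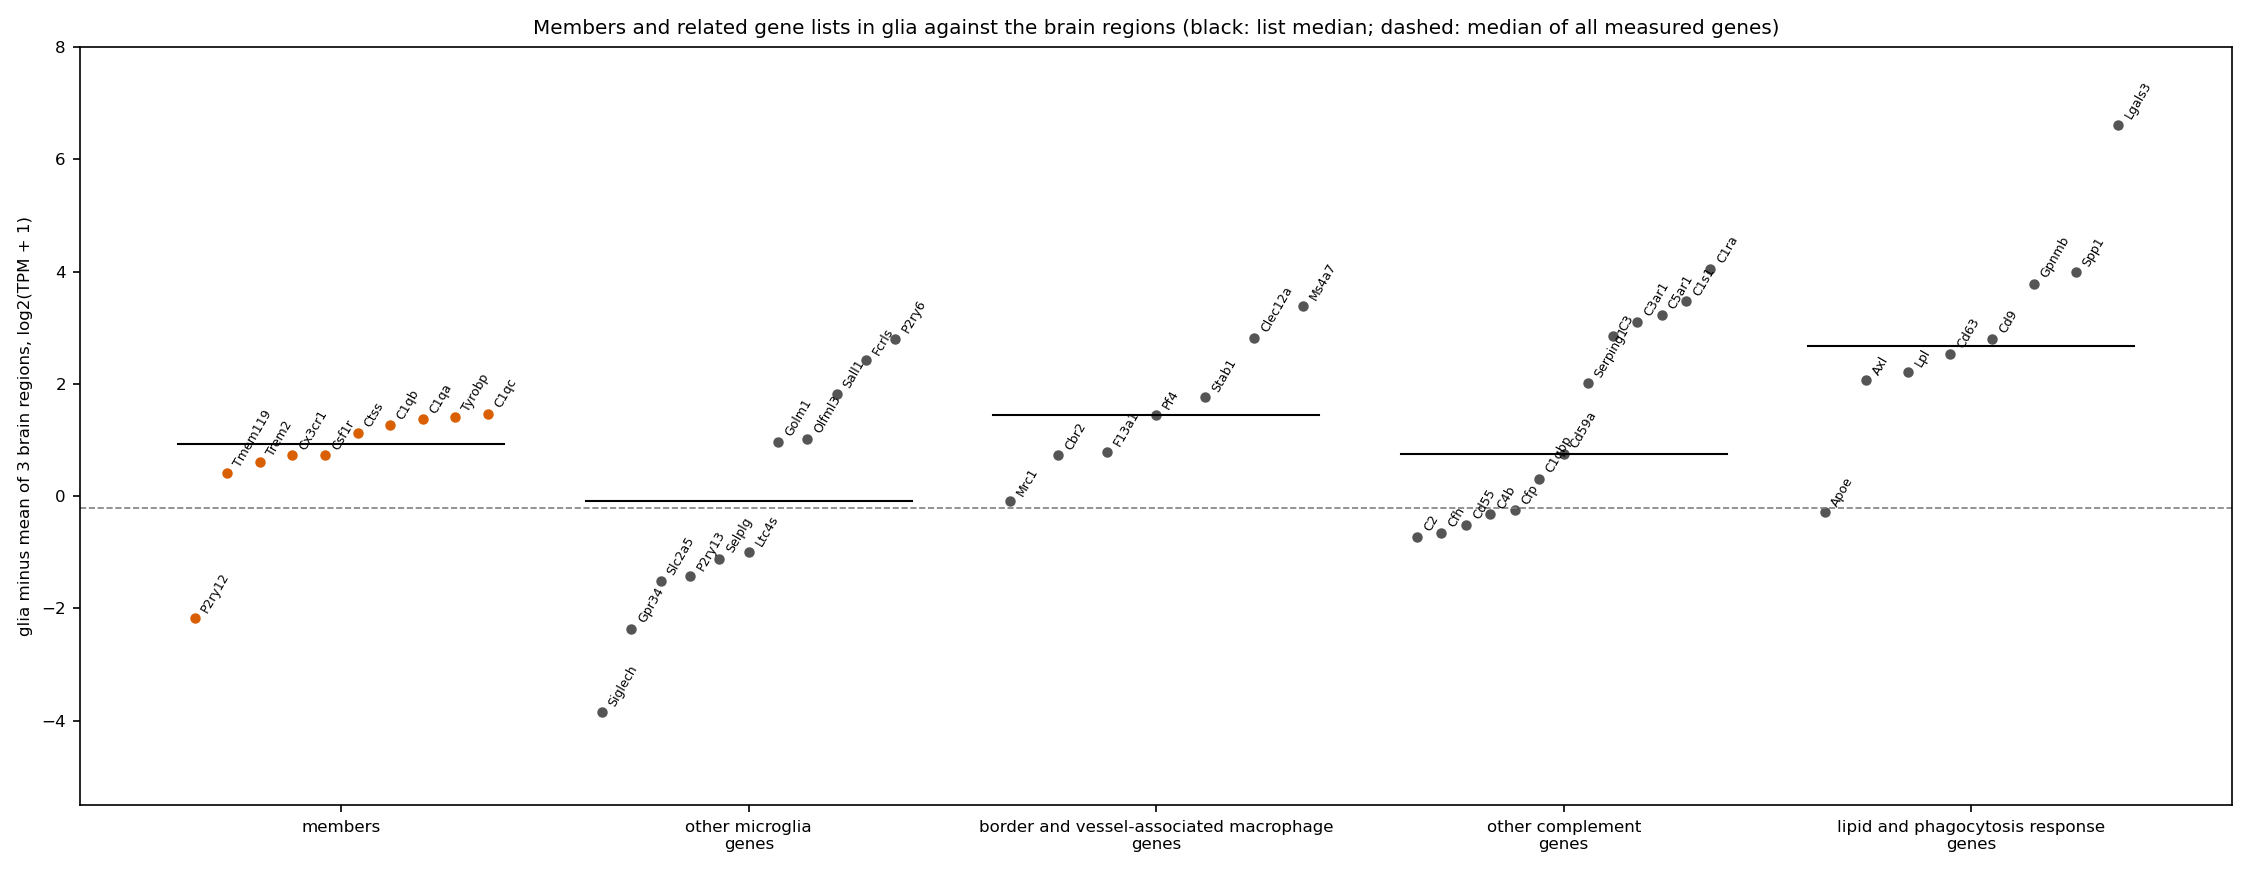
Difference in log2(TPM + 1) between glia and the mean of the brain regions for the members and genes of 4 further lists, with the medians over all measured genes of a list as solid lines and the median of all measured genes (-0.20) dashed. The median of the 10 members is 0.93 and that of the further microglia genes -0.09, and P2ry12 lies apart from the other members.

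The neuron library was set against the same regions. Ctss was called lower in neuron, which made 1 of the 10 members, against 6.58% of all genes, and 0 were called higher, against 0.676%. At 2-fold Csf1r was called lower as well, 2 of 10 against 14.4%, and 0 were higher, against 2.45%. Of the members, 9 had a lower level in neuron than in every region, Trem2 being the exception. For C1qb and Tyrobp the gap to cerebellum, 1.10-fold (0.76 to 1.60) and 2.08-fold (0.96 to 4.69), was within counting error. Against cortex alone all 10 were lower in neuron beyond counting error, with a median of 11.3-fold and a range of 2.71-fold for Trem2 to 304-fold for P2ry12, and against hippocampus the median was 9.85-fold. Cerebellum, where the members were low, limited the call, and without it 8 members were called lower in neuron. Leaving out a region loosens the rule for every gene, so the 6.58% above is not the share to set beside these 8. The median log2 difference was -2.51 over the members and -1.09 over all measured genes.

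Gene length moved with the neuron result. Counts in neuron came from shorter genes, with a mean effective length behind a count of 2488 bases, against 3730 to 3740 bases in the brain regions. Across 20 bins of effective length, the median log2 difference of neuron from the regions ran from 1.14 in the shortest bin to -2.32 in the longest. Csf1r and Cx3cr1 are the longest members, at 4122 and 3489 bases, and Tyrobp the shortest at 393 bases. With the median of their length bin taken off, the log2 difference was -1.41 in place of -3.03 for Csf1r, -2.71 in place of -4.25 for Cx3cr1, and -3.13 in place of -1.99 for Tyrobp. It was -4.33 in place of -4.39 for Ctss, -2.41 in place of -1.74 for C1qa and -1.0 in place of -0.76 for Trem2. All 10 members stayed lower in neuron on this scale, and Tyrobp was then called besides Ctss.

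**Figure D5:**
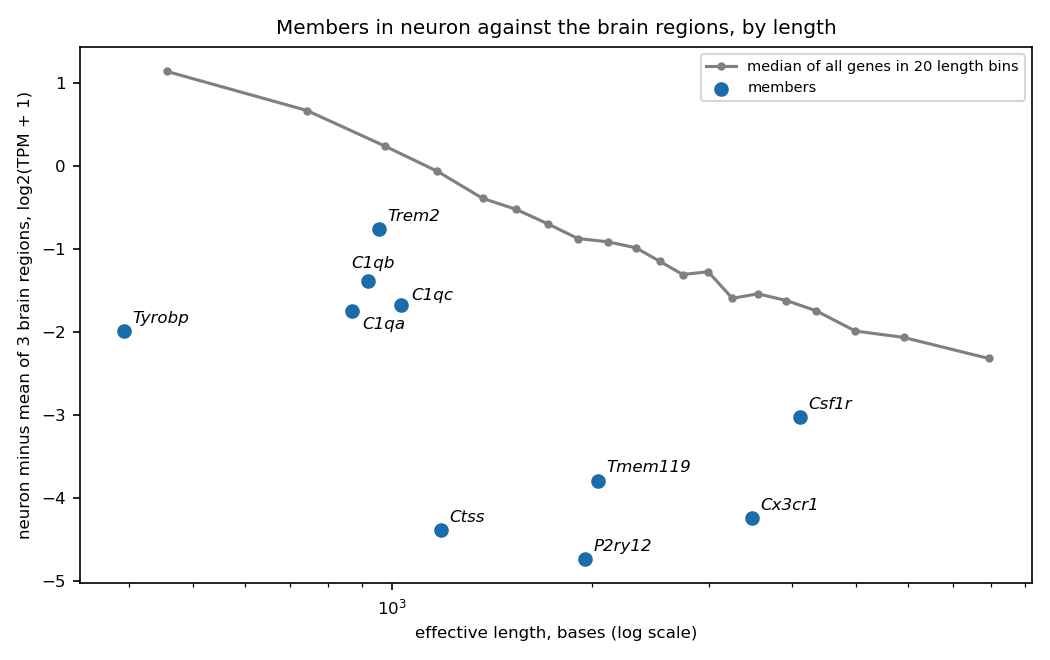
Difference in log2(TPM + 1) between neuron and the mean of the brain regions against effective length on a log axis, as the median of all genes in 20 length bins (line) and for the 10 members (points). The line runs from 1.14 to -2.32, and the 10 members lie below 0, with Ctss at -4.39 and Trem2 at -0.76.

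Marker lists describe the same library. Oligodendrocyte markers summed to 44.2 TPM in neuron, with 0 of 10 at 0, against 4801 to 6277 TPM in the brain regions. Astrocyte markers summed to 429 TPM in neuron, against 2990 to 6372 TPM, and border macrophage genes to 18.8 TPM in neuron, with 5 of 10 at 0, against 23.8 to 32.7 TPM. Of the 12 further microglia genes, 5 had 0 TPM in neuron, P2ry13, Gpr34, Siglech, Selplg and Slc2a5. Neuron markers summed to 6797 TPM in neuron, against 8141 to 9581 TPM. Their part in the members' levels was not tested.

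Among the brain regions the members moved together. At a 2-fold threshold all 10 members were called lower in cerebellum than in cortex and hippocampus, against 2.79% of all genes, and 0 were called higher, against 2.8%. At 4-fold P2ry12 alone was called lower, 1 of 10, against 1.19%. Cerebellum was lower than cortex by a median of 3.65-fold, from 2.68-fold for C1qc (2.01 to 3.61) to 5.8-fold for P2ry12 (4.17 to 8.24). It was lower than hippocampus by a median of 3.34-fold, from 2.37-fold for Ctss (1.85 to 3.05) to 6.43-fold for P2ry12 (4.59 to 9.20). The 20 intervals all lay below equal levels. The median log2 difference was -1.76 over the members and 0.08 over all measured genes. With CPM in place of TPM, 9 of the 10 passed 2-fold.

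Other macrophage genes and 2 of 3 ligands of the member receptors were also low in cerebellum. Of the 12 further microglia genes, 8 were lower at 2-fold and 2 at 4-fold, Siglech and Fcrls. Of 14 genes shared by leukocytes and myeloid cells, 7 were lower at 2-fold and 0 higher. Among the ligands, Cx3cl1 had 44.3 TPM in cerebellum, against 357 TPM in hippocampus and 501 TPM in cortex, and Il34 had 7.14 TPM in cerebellum, against 60.3 and 69.3 TPM, and both were called lower at 4-fold. Csf1 had 13.8 TPM in cerebellum, against 15.7 and 11.3 TPM. Border macrophage genes summed to 23.8 TPM in cerebellum, against 28.0 and 32.7 TPM, and 0 of them were called at 2-fold. None had 10 TPM in both hippocampus and cortex, so none could be called lower. Stab1 made up 13.9 TPM of the cerebellum sum, against 13.1 and 9.44 TPM. The median log2 difference of the list was -0.71, against 0.08 for all measured genes. Erythroid markers summed to 2375 TPM in cerebellum, against 1147 and 1298 TPM, and astrocyte markers to 6372 TPM, against 3359 and 2990 TPM. The part of these lists in the members' difference was not tested.

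Hippocampus and cortex differed little in the members. None of the 10 was called at 4-fold, against 0.168% of all genes higher in hippocampus and 0.31% lower, or at 2-fold, against 0.818% and 1.28%. Ratios of hippocampus over cortex ran from 0.752 for Tyrobp to 1.11 for P2ry12. Only Cx3cr1 had an interval that left out equal levels, with hippocampus 1.32-fold lower (1.10 to 1.58). For Trem2 the interval was 0.73 to 1.63, so differences of that size could not be seen at this depth.

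In the libraries with no brain tissue, Tmem119 behaved unlike the other members. In glia, 8 of the 10 members were called higher than in both MEFs, against 3.6% of all genes, and 0 were called lower, against 1.05%. Their folds over the nearer MEF library ran from 6.46 for Trem2 (3.50 to 13) to 27.3 for Ctss (17.3 to 45.8). The call of Trem2 was lost with 5 TPM added in place of 1 or with TMM factors of the TPM. Tmem119 was instead 2.76-fold lower in glia than in OG2 MEF (2.24 to 3.42) and past 2-fold lower than both, 1 of 10 against 2.34% of all genes, while 8 were past 2-fold higher, against 9.37%. It was also 2.33-fold lower in cortex than in OG2 MEF (1.87 to 2.93). The median log2 difference of glia from the MEFs was 4.18 over the members and 0.54 over all measured genes.

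Between the brain regions and the MEFs, 1 of the 10 members, Ctss, was called higher in the regions, against 6.14% of all genes, and 0 lower, against 2.41%. At 2-fold, 6 were higher, against 11.5%, and Tmem119 was lower, against 4.61%. Cerebellum set that limit too, and without it 9 members were called higher at 4-fold, while without OG2 MEF 6 were. Fewer libraries loosen the rule for every gene, so the 6.14% above is not the share to set beside these 9 and 6. Tmem119 had 351 counts in ICR MEF and 380 in OG2 MEF, so its level there did not rest on few reads. P2ry12 had 1 count in each of them, and Csf1r, on which most macrophages depend, had 2.60 and 4.0 TPM.

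The MEF libraries differed from each other in the complement chains. C1qb was 4.06-fold lower in ICR MEF than in OG2 MEF (1.77 to 10.9), C1qc 2.87-fold (1.47 to 6.0) and C1qa 2.71-fold (1.12 to 7.52), and Cx3cr1 was 3.31-fold lower (1.41 to 9.0). These values rest on 7 to 12 counts in ICR MEF and 22 to 40 in OG2 MEF. No member was called at 4-fold, against 0.0438% of all genes lower and 0.128% higher. At 2-fold C1qb and C1qc were lower in ICR MEF, 2 of 10, against 0.165%, and 0 were higher, against 0.623%. Tmem119 and Ctss had intervals of ICR MEF over OG2 MEF that held equal levels, 0.93 to 1.25 and 0.67 to 2.88. Of the 14 genes shared by leukocytes and myeloid cells, 0 were called at 2-fold, and their median log2 difference was -0.19, against -0.97 for the members.

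The library labelled R1 ESCs held the least of the members. P2ry12, Ctss, C1qa and C1qb had 0 counts there. Tmem119, with 16 counts, was called lower than in both MEFs, 1 of 10 against 13.7% of all genes, by 21.4-fold against OG2 MEF (13 to 37.9). No member was called higher, against 1.38%. At 2-fold Tmem119 was again the 1 member called lower, against 19%, and 0 were higher, against 2.71%. The floor of 10 TPM left no other member open to a call, so these counts are not set against the shares. Tmem119 alone reached it in ICR MEF, and no member did in the library labelled R1 ESCs. That library's counts came from short genes, with a mean effective length of 1739 bases behind a count, against 3136 in ICR MEF and 3021 in OG2 MEF. With the trend on length taken off, the log2 difference from the MEFs was -2.15 in place of -4.04 for Tmem119. For Csf1r, Cx3cr1 and P2ry12 it went from -1.29, -1.12 and -0.23 to 1.58, 1.5 and 1.65. Their counts in that library were 9.75, 1 and 0. The change of sign came from subtracting bin medians of -2.87, -2.62 and -1.88 from differences near the floor. It is therefore not read as a higher level in that library.

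The patterns over all 8 libraries were then compared gene by gene, as the root mean square distance between log2(TPM + 1) profiles centred on their own mean. Csf1r lay closest to the median profile of the other 9 members, at 0.32, followed by Tyrobp at 0.36 and C1qc at 0.56. P2ry12 and Tmem119 lay farthest, at 1.25 and 2.44. Among 12223 candidate genes outside the list, the 10 nearest to the members' median profile were Stxbp6 at 0.46, Pcdh10 and C1ql3 at 0.50, Ly86 at 0.52, Ptprj at 0.53, Adrb1 at 0.55, Acss1 at 0.56, Raver2 and Jazf1 at 0.57 and Axin2 at 0.58. Ly86, which encodes a partner of the receptor CD180, had 57.2 TPM in glia, 3.49 TPM in neuron, 8.57 TPM in cerebellum, 24.0 TPM in hippocampus and 17.9 TPM in cortex. Stxbp6 had 77.1 TPM in glia, 3.75 TPM in neuron, 12.1 TPM in cerebellum, 71.1 TPM in hippocampus and 51.0 TPM in cortex. With 8 libraries, such closeness is a description of these profiles.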

How the data were processed

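RNA of 8 mouse libraries, 1 per group, was sequenced. Per the labels' protocols, libraries were made from 1 ug of total RNA taken up in Trizol, with the Illumina TruSeq RNA kit, and the submitters' processing notes name Bowtie, RSEM and the build mm10. The sources used here give neither versions nor strandedness. Expected counts, effective lengths in bases and TPM were deposited per gene by the authors, per the file headers, and were used as deposited. The members, the 18 further gene lists, the comparisons and the call rule were chosen with earlier results of these data known. Named genes are the 10 members, the 10 genes nearest in profile, and up to 4 genes of a list, the called ones of highest mean TPM first. Further list genes (P2ry13, Siglech, Gpr34, Selplg, Slc2a5, Stab1, Ms4a7, Cd163, Lyve1, Cd209f, Fn1, Thbs1, Dcn, Thy1, Stmn2, Map2, Olig1, Olig2, Cnp, and genes of the closing section) and the pluripotency markers were named after their values were seen.

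A gene was called at 10 TPM or more in every library of the higher side and 4-fold (also 2-fold) apart on TPM + 1, over all 29713 genes. The log2 difference is that of the groups' means of log2(TPM + 1), and a list's median covers genes with a mean TPM of at least 1 over the libraries compared. Folds between libraries, given without the added 1, carry exact (Clopper-Pearson) 95% intervals of the expected counts, and levels carry exact Poisson intervals. Of the further microglia genes, 1 is counted with its list and not reported by itself here. Coordinates come from GENCODE M21 by gene identifier, and promoter windows from RefSeq. Alternatives were 0.1 or 5 TPM added, no minimum or 1 TPM, 2-fold, CPM, TMM factors of counts or TPM, removal of the length trend in 20 bins, and each library of a side left out. Software versions were R 4.3.3 and edgeR 4.0.16 (used for TMM factors), Python 3.11.15, pandas 2.3.3, matplotlib 3.10.9, scipy 1.17.1 and numpy 2.4.6.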

Additional observations from a re-analysis of the deposited data

How the results depend on the processing

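No paired analysis was possible because each group held 1 library. Of 208 recomputed values of called members, 0 changed direction, and of 772 values of members not called, 10 changed sign. The number of members called, higher and lower together, lay between 7 and 9 for glia over neuron under all alternatives run, and between 7 and 9 for glia over MEFs. For glia over MEFs at 2-fold it was made up of 8 higher and 1 lower, Tmem119. For neuron over the brain regions it was 1, and became 4 with no minimum or a minimum of 1 TPM, and 2 at 2-fold, with CPM or with the length trend removed. For the brain regions over the MEFs it was 1, and became 2 with 0.1 TPM added, with no minimum or with a minimum of 1 TPM. It became 0 with 5 TPM added or TMM factors of the TPM. At 2-fold it was 7, of which 6 were higher in the regions and Tmem119 was lower. For cerebellum it was 1, and became 2 with 0.1 TPM added or the length trend removed and 10 at 2-fold. For the library labelled R1 ESCs over the MEFs it was 1, and became 2 with no minimum or 1 TPM. For ICR MEF over OG2 MEF it was 0, and became 2 at 2-fold. Leaving out 1 library gave 0 to 1 members for glia over the brain regions, 1 to 8 for neuron over them, 1 to 9 for the brain regions over the MEFs, 2 to 2 for cerebellum, and 1 to 3 for the library labelled R1 ESCs, where C1qb and C1qc joined Tmem119 without ICR MEF. The count of members past 2-fold in cerebellum, an alternative chosen after seeing the data, stayed between 9 and 10. Except where fewer libraries or a changed threshold entered by construction, the cause was not tested. The scaling moved the median log2 difference of all genes for neuron over the brain regions to -0.29 with CPM, against -1.07 with TPM, and that of the members to -1.57, against -2.51. Depth limits the members at 1 to 12 counts, in neuron, the MEFs and the library labelled R1 ESCs.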

Other observations

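Some further macrophage genes of the lists gave values outside the comparisons above, all from single libraries. H2-Ab1, which encodes a chain of an MHC class II molecule, had 58.3 TPM in neuron on 171 counts, against 1.79 TPM in cerebellum, 1.89 TPM in hippocampus and 2.44 TPM in cortex, while its partner H2-Aa had 0.49 TPM in neuron. H2-Eb1 and Cd74, of the same pathway, both had 2.85 TPM in neuron. Cd68, a lysosomal gene of macrophages, had 37.6 TPM in neuron, against 2.36 TPM in cerebellum, 18.6 TPM in hippocampus and 21.4 TPM in cortex. C3 had 15.2 TPM in neuron on 233 counts, against at most 1.73 TPM in any brain region, and 13 TPM in glia. Clec12a had 11.6 TPM in glia, against at most 3.73 TPM in any brain region. Plac8, listed with blood monocyte genes, had 110.5 TPM in ICR MEF and 60.2 TPM in OG2 MEF.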
